A study of Homo sapiens with 6 samples.

Results

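The set described here holds 34 genes of integrins and leukocyte adhesion molecules, chosen by symbol, of 61498 genes measured. It comprises 17 integrin alpha subunits, 7 beta subunits, 4 cell surface ligands of integrins (ICAM1, ICAM2, ICAM3 and VCAM1), the secreted ligand EDIL3, and 5 other adhesion molecules (PECAM1, CD44, SELPLG, CD2 and CD58). All 34 symbols were matched to a gene. ITGB7 and ITGAD, integrin subunits outside the set, were looked up only because known heterodimers need them.

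Total RNA of 3 human cell lines was sequenced after removal of ribosomal RNA, with 2 libraries for each line. RPMI-8226 is an established line of multiple myeloma, a malignancy of plasma cells. RPMI-8226-R is derived from it and resists bortezomib, a proteasome inhibitor, and NCI-BL2171 is the comparison line. All 3 lines are labelled as B lymphocytes and as untreated, so no library was exposed to the drug at harvest as far as the labels say. How the resistant line was selected, and whether it is 1 clone, is not given in the sources used here. Nothing in the labels ties the libraries to separate cultures, and p-values then cover only library-to-library spread, which may be technical.

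Integrins are receptors of 1 alpha and 1 beta subunit that reach the surface only as a pair and bind matrix proteins or ligands on other cells. In plasma cells the VLA-4 integrin (ITGA4 with ITGB1) binds VCAM1 and fibronectin in the bone marrow, and in leukocytes the ITGB2 integrins such as LFA-1 (ITGAL with ITGB2) bind the ICAM proteins. Adhesion of myeloma cells to marrow stroma is known to lower their response to several drugs. The level of a transcript is not a measure of surface protein, and an expressed pair of subunits is only a pair that the line could form.

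The libraries held 23952370 to 29052199 estimated reads. The libraries labelled NCI-BL2171 went against their label: all 8 erythroid markers stood at 1 TPM (a level per transcript length, scaled to the same total in each library) or more in both, with a summed level of 48300 to 50400 TPM. In the same libraries JCHAIN, TNFRSF17, IRF4, MZB1, MS4A1 and PAX5 were listed at 0. Both RPMI lines held 6 of 6 plasma cell markers at 1 TPM or more. Every statement below on the libraries labelled NCI-BL2171 therefore describes those libraries and not B lymphocytes. No endothelial or fibroblast marker reached 1 TPM in both libraries of any line.

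At the threshold of 1 TPM in both libraries, 20 of the 34 members were present in RPMI-8226, 16 in RPMI-8226-R and 13 in the libraries labelled NCI-BL2171. ITGA1, ITGA2, ITGA6, ITGA8, ITGA9, ITGA10, ITGA11, ITGB3, ITGB6, ITGB8 and VCAM1 were below 1 TPM in all 6 libraries. ITGA1, ITGA8, ITGA9, ITGA10, ITGA11 and ITGB6 had at most 8 reads in any library and failed the filter on low counts, so that 28 members were tested. The plot of levels by library shows the spread of levels over the lines, which was wide for ITGA3, ITGB2, EDIL3, ICAM1 and SELPLG.

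**Figure D1:**
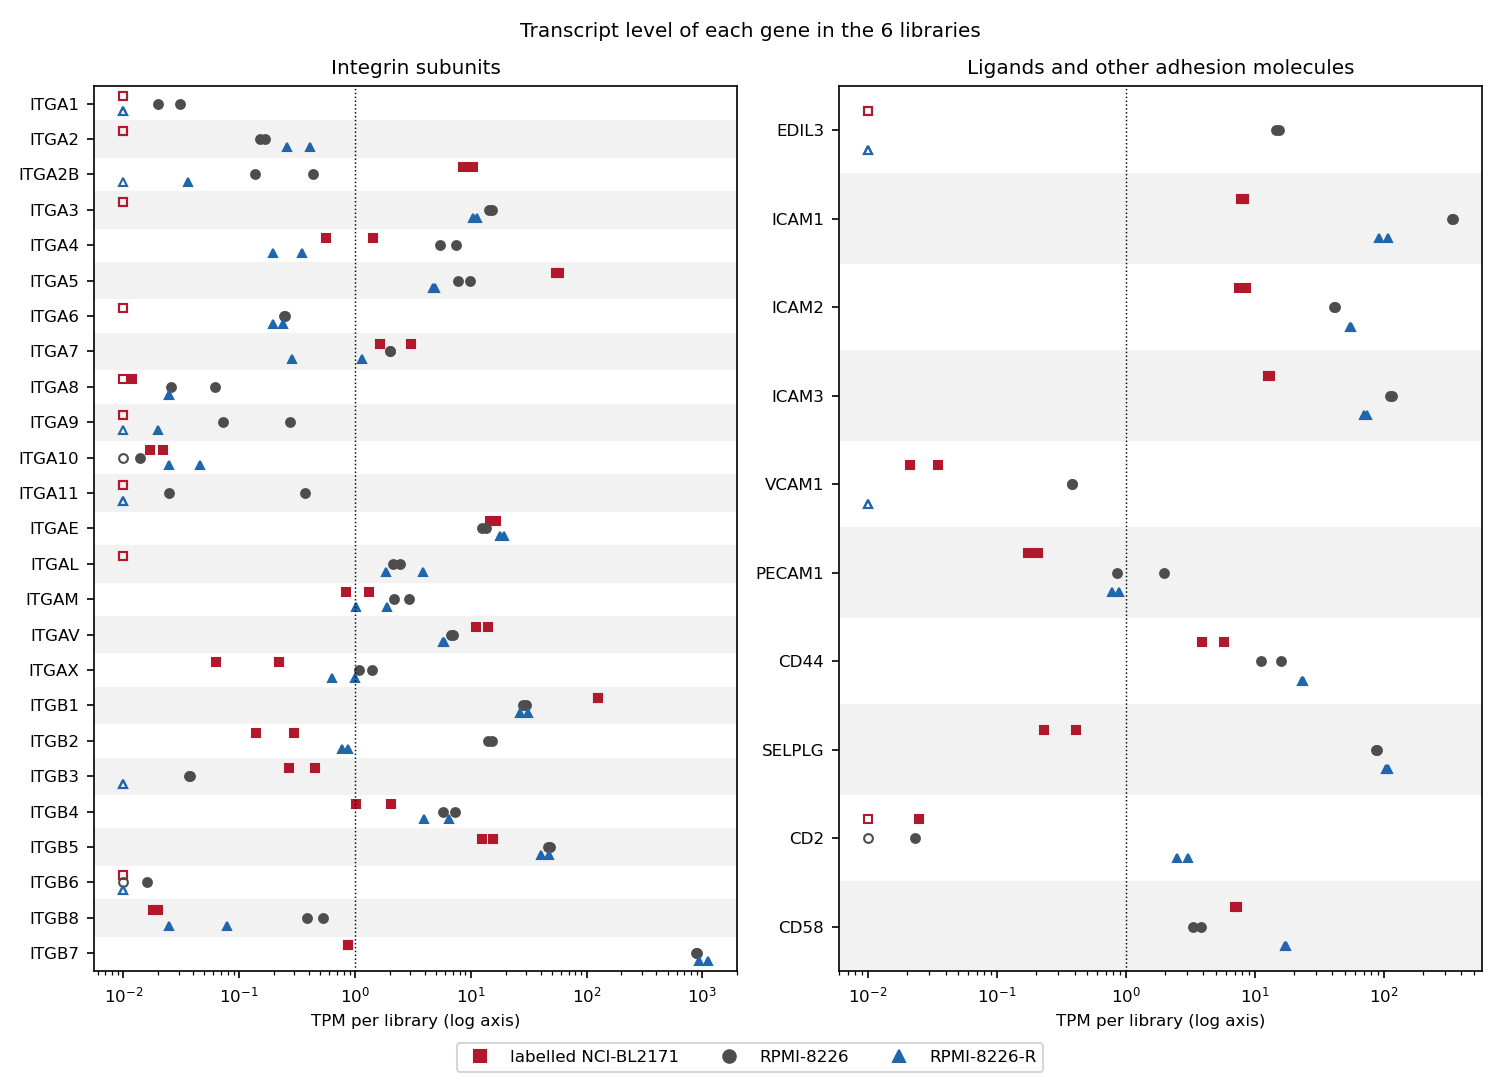
Level of each member and of ITGB7 in TPM (log axis) in each of the 6 libraries, 2 symbols per line, with open symbols at the left edge for values below 0.01 TPM and a dotted line at 1 TPM. EDIL3 stands near 15 TPM in RPMI-8226 and at the edge in the other lines, and ITGB7 stands far above 1 TPM in both RPMI lines and below it in the libraries labelled NCI-BL2171.

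In RPMI-8226-R against RPMI-8226, 3 members rose, 20 fell and 5 did not pass the test, so that 82.1% of those tested were called. Over all 20081 genes tested, 65.6% were called (28.5% higher and 37.2% lower in RPMI-8226-R), so most of this share is the background between the lines. The median log2 fold change of the tested members was -0.86, against -0.12 over all genes tested. On log2(TPM + 1) values tested with limma, 14 of the 28 members tested were called, 5 higher and 9 lower. All 20081 genes split into 7030 higher and 4557 lower on that scale, against 5716 higher and 7461 lower on counts. The share of members called on log2(TPM + 1) was thus below the share of all genes called. The scales differ by construction: among 13564 genes at 1 TPM or more in both lines, the log2 ratio of mean TPM lay a median of 0.38 above the log2 fold change from counts. Members whose count change was smaller than that shift are given below with both values.

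Of the 18 integrin subunits tested, 0 rose and 14 fell by the count test, and 1 (ITGAE) rose on log2(TPM + 1). The falls comprised 8 of 12 alpha subunits and 6 of 6 beta subunits, while 37.2% of all genes tested were lower by that test. On log2(TPM + 1) with limma, 5 subunits fell: ITGA3, ITGA4, ITGA5, ITGB2 and ITGB8. That share was near the share of all genes lower on the same scale, so it is not read as a result on the subunits.

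ITGB2 (chr21:44885953-44931989 in GRCh38, minus strand), the beta subunit shared by the leukocyte integrins, showed the largest fitted fall of a subunit with reads in both lines. In RPMI-8226 its level was 15.3 and 14.1 TPM, against 0.874 and 0.767 TPM in RPMI-8226-R and 0.297 and 0.140 TPM in the libraries labelled NCI-BL2171. Both RPMI-8226 libraries stood above the other 4. The level was 25.1-fold lower in RPMI-8226-R than in RPMI-8226 (log2 fold change -4.65 ± 0.16, SE, edgeR adjusted p = 6.4e-16).

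The alpha partners of ITGB2 were low in both RPMI lines. ITGAL, the alpha subunit of LFA-1, was 2.12 and 2.46 TPM in RPMI-8226 and 3.90 and 1.84 TPM in RPMI-8226-R, so the lines overlapped. It had 117 and 133 reads against 101 and 72, a change of -0.62 ± 0.27 on the log2 scale (edgeR adjusted p = 0.048) that was 0.18 on log2(TPM + 1), and with the RPMI libraries fitted alone it did not pass (adjusted p = 0.0612). Without the second RPMI-8226-R library the log2 fold change of ITGAL was -0.34 (edgeR adjusted p = 0.34). ITGAM, the alpha subunit of Mac-1, had 148 and 171 reads in RPMI-8226 and 42 and 54 in RPMI-8226-R, and fell 3.56-fold (edgeR adjusted p = 8.0e-06), although its TPM difference did not pass with limma (log2 scale -0.55, adjusted p = 0.0825). ITGAX, the alpha subunit of the complement receptor p150,95, had 60 and 64 reads against 23 and 47 (log2 fold change -0.93 ± 0.38, edgeR adjusted p = 0.0387). Its call was lost with DESeq2 (adjusted p = 0.163), with an effective-length offset (edgeR adjusted p = 0.133) and with limma on log2(TPM + 1) (adjusted p = 0.129). It was also lost without either RPMI-8226 library (log2 fold change -1.02 and -0.84) and without the first RPMI-8226-R library (-0.54).

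ITGA4 (chr2:181457202-181536187, plus strand), the alpha subunit of VLA-4 and of the gut-homing integrin with ITGB7, was 5.44 and 7.48 TPM in RPMI-8226. It was 0.349 and 0.195 TPM in RPMI-8226-R, from 22 reads in each library, and 0.561 and 1.42 TPM in the libraries labelled NCI-BL2171. No RPMI-8226-R library overlapped RPMI-8226, and the level was 20.1-fold lower (log2 fold change -4.33 ± 0.25, edgeR adjusted p = 2.2e-12). Against the libraries labelled NCI-BL2171, ITGA4 was 2.07-fold lower in RPMI-8226-R (edgeR adjusted p = 0.00432), a call lost without the second of those libraries (log2 fold change -0.66, adjusted p = 0.111).

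The other abundant alpha subunits moved less. ITGA5, the alpha subunit of the fibronectin receptor, was 9.88 and 7.69 TPM in RPMI-8226 and 4.73 and 4.90 TPM in RPMI-8226-R, and fell 2.21-fold (log2 fold change -1.15 ± 0.09, edgeR adjusted p = 3.4e-10). ITGA3, the alpha subunit of a laminin receptor, was 15.4 and 14.3 TPM against 11.3 and 10.4 TPM and fell 1.5-fold (edgeR adjusted p = 9.4e-05). ITGAV, the alpha subunit of vitronectin receptors, was 6.70 and 7.00 TPM against 5.75 and 5.83 TPM and did not pass (log2 fold change -0.19 ± 0.10, edgeR adjusted p = 0.115). Its difference passed with an effective-length offset, at -0.57 (edgeR adjusted p = 0.00581), and without the second RPMI-8226 library, at -0.30 (adjusted p = 0.0491).

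ITGAE, the alpha subunit that pairs with ITGB7 and binds E-cadherin, was 13.6 and 12.5 TPM in RPMI-8226 and 17.8 and 19.2 TPM in RPMI-8226-R. The libraries of the lines did not overlap in TPM, but the count test did not pass (log2 fold change 0.13 ± 0.15, edgeR adjusted p = 0.462), and the limma test on log2(TPM + 1) gave 0.48 (adjusted p = 0.00947). Its effective length was 13.3% to 14.4% of the longest coding transcript of 3858 bases in all 6 libraries, so its TPM came from short transcripts. HASPIN lies within ITGAE on the opposite strand, and reads of such overlapping genes cannot be told apart without strand.

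ITGA7, the alpha subunit of a laminin receptor known from muscle, was 2.02 and 2.01 TPM in RPMI-8226 and 0.285 and 1.16 TPM in RPMI-8226-R (log2 fold change -1.51 ± 0.37, edgeR adjusted p = 0.00164). The ITGA7 call was lost with limma on log2(TPM + 1) (-0.85, adjusted p = 0.0528). ITGA7 overlaps BLOC1S1 and METTL7B on the opposite strand. ITGA2, the alpha subunit of a collagen receptor, had 33 and 34 reads against 49 and 70 and did not pass (log2 fold change 0.72 ± 0.38, edgeR adjusted p = 0.0991), and passed with the RPMI libraries fitted alone (0.81, adjusted p = 0.0391). ITGA6, the alpha subunit of laminin receptors, had 43 and 25 reads against 27 and 34, with no call (log2 fold change -0.25 ± 0.45 from counts, edgeR adjusted p = 0.651). Its TPM was 0.248 and 0.242 against 0.196 and 0.239, a log2 ratio of means of -0.17. ITGA2B, the alpha subunit of the platelet fibrinogen receptor, had 10 and 12 reads in RPMI-8226 and 0 and 3 in RPMI-8226-R, a count ratio of 7.84 (95% counting interval 2.36 to 40.9). On log2(TPM + 1) with limma the ITGA2B difference was -0.33 and did not pass (adjusted p = 0.143).

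Among beta subunits, ITGB1, the common partner of 12 alpha subunits in the list of pairs used, had 1965 and 1847 reads in RPMI-8226 and 1479 and 1635 in RPMI-8226-R. Its log2 fold change from counts was -0.39 ± 0.07 (edgeR adjusted p = 3.6e-05), while its TPM was 29.8 and 28.0 against 26.5 and 31.0 and the difference on log2(TPM + 1) was -0.01. ITGB5, a partner of ITGAV, gave -0.78 ± 0.08 from counts (edgeR adjusted p = 1.1e-08), -0.12 on log2(TPM + 1), and overlapping TPM of 48.6 and 46.0 against 40.1 and 47.3. Whether either level differed between the RPMI lines therefore depended on the scale. Both were called lower with an effective-length offset and with the RPMI libraries fitted alone, but not on log2(TPM + 1).

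ITGB4, the partner of ITGA6 in epithelial hemidesmosomes, was 5.73 and 7.35 TPM against 3.98 and 6.44 TPM and overlapped (log2 fold change -0.63 ± 0.20, edgeR adjusted p = 0.00838). Its call was lost with DESeq2 (adjusted p = 0.0599), with an effective-length offset (edgeR adjusted p = 0.104) and with limma on log2(TPM + 1) (adjusted p = 0.399). It was also lost without the first library of RPMI-8226 (log2 fold change -0.61) or of RPMI-8226-R (-0.52). ITGB8, a partner of ITGAV that binds latent TGF-beta, had 37 and 32 reads against 9 and 5 and was 5.17-fold lower in RPMI-8226-R (edgeR adjusted p = 7.3e-04). ITGB3, the beta subunit of the platelet fibrinogen receptor, had 7 reads in each RPMI-8226 library and 0 in both of RPMI-8226-R, which is at least 2.5-fold lower against a floor of 3 counts per library. Intervals and floors here and below cover counting error only.

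**Figure D2:**
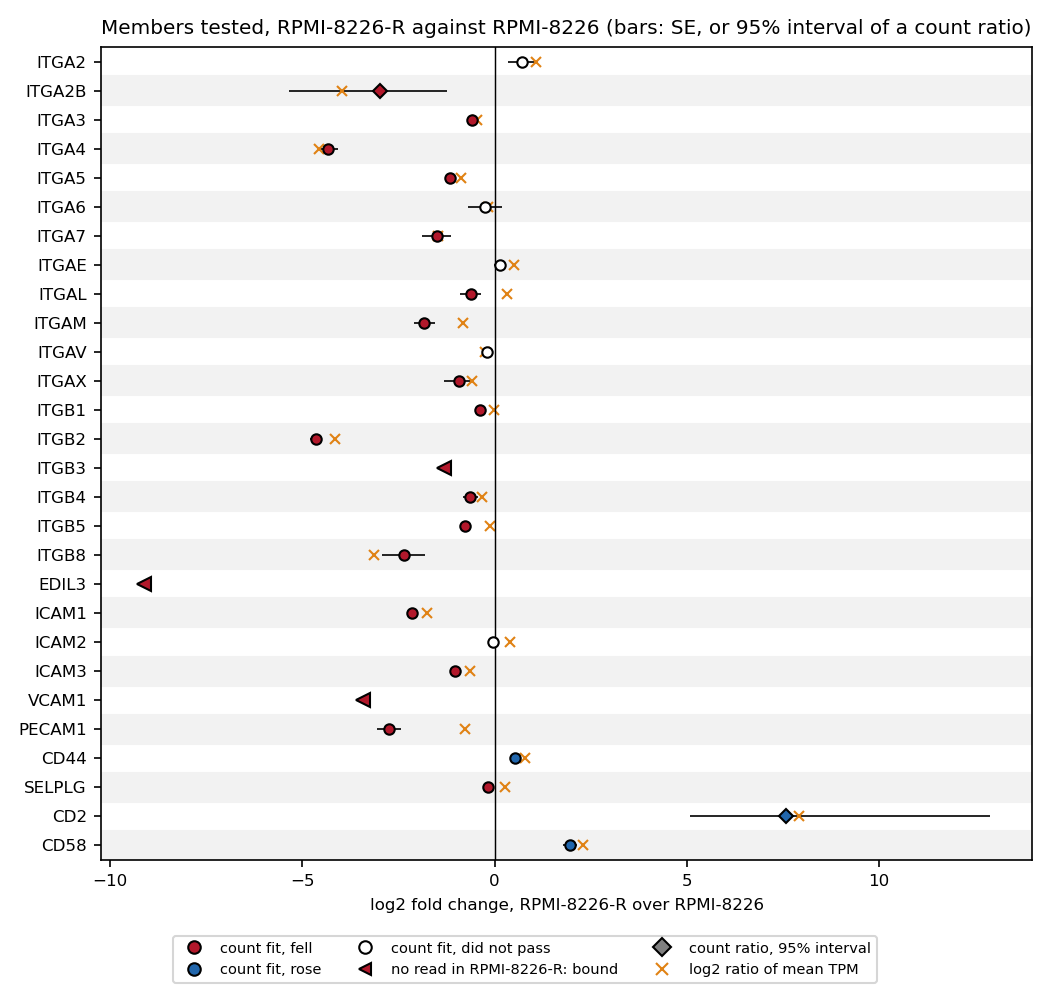
Log2 fold change of the 28 tested members in RPMI-8226-R over RPMI-8226 from counts (circles, bars give the SE, filled where the edgeR test passed), with the count ratio and its 95% interval where a line had 1 to 3 reads (diamonds), the lower bound of the fall for genes without a read in RPMI-8226-R (triangles) and the log2 ratio of mean TPM (crosses). ITGB2 and ITGA4 lie below -4 on both scales, while ITGB1 and ITGB5 lie near 0 in TPM.

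ITGB7 dominated the beta subunits of both RPMI lines, at 876 and 906 TPM in RPMI-8226 and 933 and 1118 TPM in RPMI-8226-R, or 89.8% to 92.9% of the summed TPM of all beta subunits. Its change between the RPMI lines was small and turned with the scale (log2 fold change -0.16 ± 0.06 from counts, edgeR adjusted p = 0.0276, and 0.20 on log2(TPM + 1), adjusted p = 0.112). In the libraries labelled NCI-BL2171 it was 0.876 and 0.877 TPM, and ITGB1 held 86.7% and 89.3% of the beta subunit TPM there. ITGAD, a partner of ITGB2, was listed at 0 in all 6 libraries.

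Of 24 known alpha and beta pairs, 21 can be built from members alone. With both subunits at 1 TPM or more in both libraries, RPMI-8226 held 9 of these 21 pairs, RPMI-8226-R 4 and the libraries labelled NCI-BL2171 4. With ITGB7 and ITGAD included, the counts were 11, 5 and 4 of 24. ITGA5 with ITGB1, ITGAV with ITGB1 and ITGAV with ITGB5 met the threshold in all 3 lines.

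In RPMI-8226 the other pairs were ITGA3, ITGA4 and ITGA7 with ITGB1, ITGAL, ITGAM and ITGAX with ITGB2, and ITGA4 and ITGAE with ITGB7. RPMI-8226-R had only ITGA3 with ITGB1 and ITGAE with ITGB7 beside the shared pairs at that threshold. The libraries labelled NCI-BL2171 had ITGA7 with ITGB1 beside them. ITGA3 with ITGB1 was thus met in both RPMI lines and not in the libraries labelled NCI-BL2171, where ITGA3 had 0 reads.

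The subunit with the lower level differed between pairs and lines. For VLA-4 it was ITGA4, with a mean of 6.46 ± 1.44 TPM (SD, n = 2) in RPMI-8226, against 0.272 ± 0.109 TPM in RPMI-8226-R. For the fibronectin receptor it was ITGA5, at 56.5 ± 2.35 TPM in the libraries labelled NCI-BL2171 and 8.79 ± 1.55 TPM in RPMI-8226, against 4.81 ± 0.124 TPM in RPMI-8226-R. For LFA-1 it was ITGAL in RPMI-8226, at 2.29 ± 0.235 TPM, and ITGB2 in RPMI-8226-R, at 0.821 ± 0.0757 TPM. The ITGB2 pairs of RPMI-8226-R lay just below the threshold, and at 0.5 TPM that line held 7 of the 21 pairs.

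**Figure D3:**
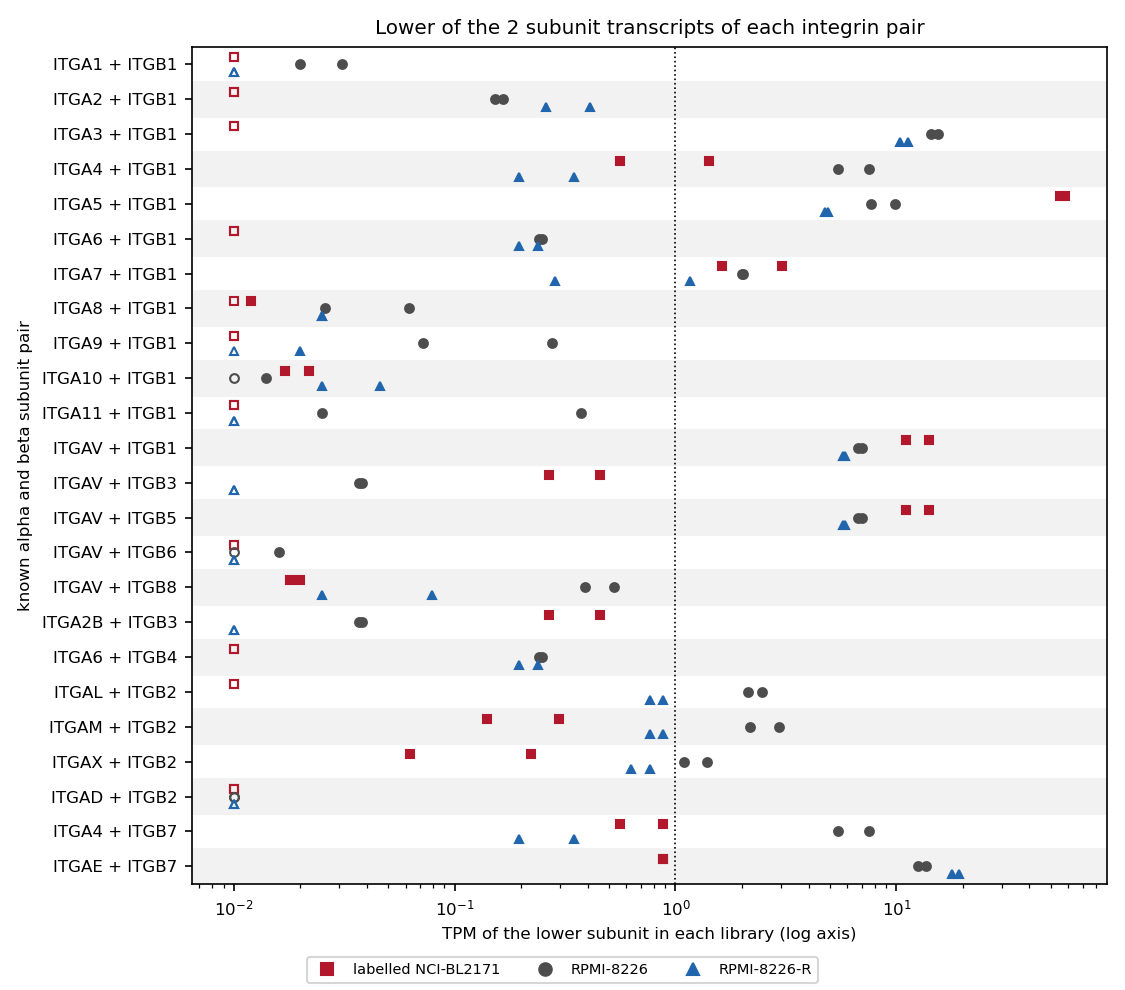
TPM of the lower subunit of each of 24 known integrin pairs (log axis) in each of the 6 libraries, with open symbols at the left edge for values below 0.01 TPM and a dotted line at 1 TPM. ITGA4 with ITGB1 and the ITGB2 pairs with ITGAL, ITGAM and ITGAX lie above the line in RPMI-8226 and below it in RPMI-8226-R.

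Counts of pairs rested on the length assigned to each gene. In RPMI-8226 the effective length was 32.4% to 32.5% of the longest coding transcript for ITGAL and 32.6% to 51.6% for ITGAM. It was 30.6% to 36% for ITGAX and 26.5% to 38.6% for ITGA7, and ITGAE, counted with ITGB7, stood lower still, as given above. CD44 (11.1% to 17.6%) and ITGB4 (6.78% to 18.8%) were also short, as the plot of effective lengths shows. They moved no count, since CD44 forms no integrin pair and ITGA6 with ITGB4 was met in no line. Levels of the subunits were recomputed from reads and the longest coding transcript, a choice made after the lengths were seen. The scaling of each library still used the effective lengths, so subunits with shorter effective lengths went down by construction and the levels are not TPM. Fewer pairs at the same threshold of 1 were therefore built in. RPMI-8226 then held 5 of 21 pairs, without the ITGB2 pairs and without ITGA7 with ITGB1, and the libraries labelled NCI-BL2171 held 3. RPMI-8226-R then held 4, namely ITGA3, ITGA5 and ITGAV with ITGB1 and ITGAV with ITGB5, and RPMI-8226 held these and ITGA4 with ITGB1.

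**Figure D4:**
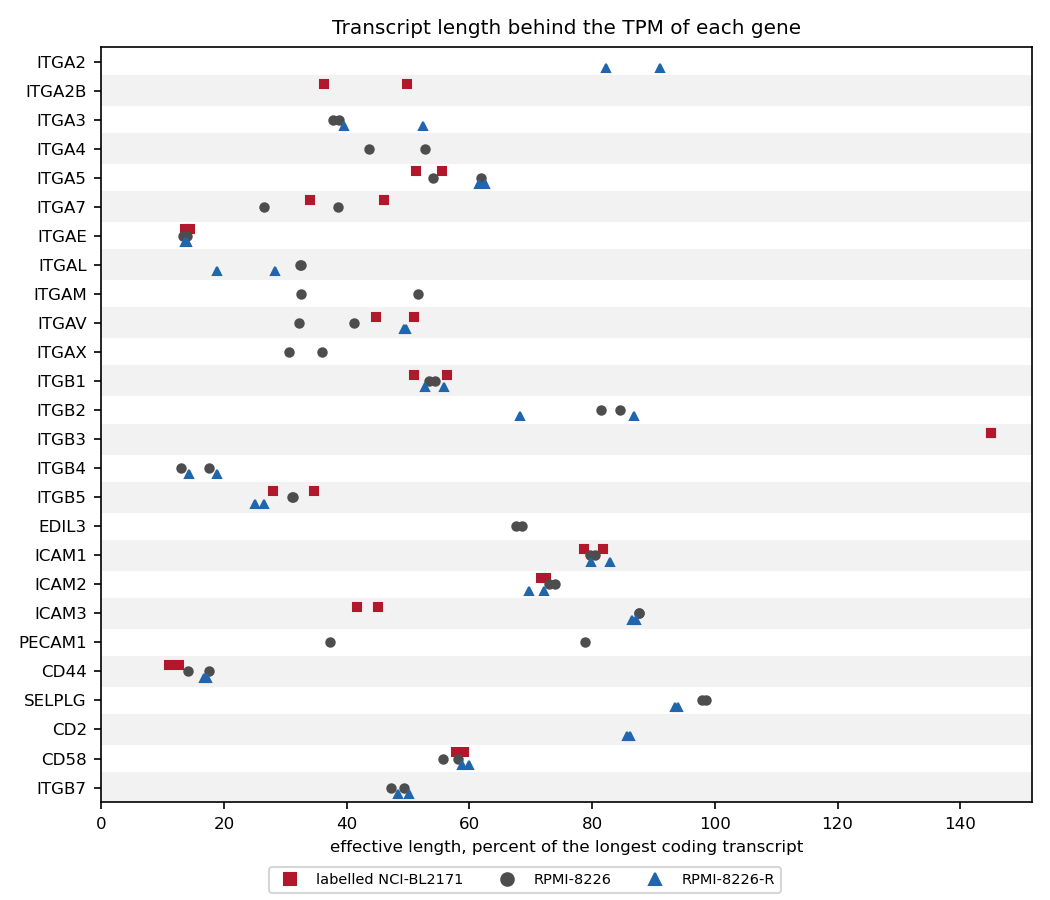
Effective length as a percentage of the longest coding transcript, lowest and highest library of each line, for the 26 genes and lines with 100 reads or more in both libraries together. ITGAE, ITGB4 and CD44 lie below 20%, SELPLG and ICAM3 in the RPMI lines lie above 80%, and ITGB3 in the libraries labelled NCI-BL2171 lies at 145%.

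The cell surface ligands of ITGB2 and ITGA4 integrins also differed between the RPMI lines. ICAM1 (chr19:10270835-10286615, plus strand), a ligand of LFA-1 and Mac-1, was the most abundant member in RPMI-8226, at 343 and 337 TPM. Levels were 91.9 and 107 TPM for RPMI-8226-R and 8.23 and 7.85 TPM in the libraries labelled NCI-BL2171, with no overlap between any 2 lines. The fall between the RPMI lines was 4.41-fold (log2 fold change -2.14 ± 0.06, edgeR adjusted p = 5.0e-17).

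ICAM3, a ligand of LFA-1 on resting leukocytes, was 116 and 111 TPM in RPMI-8226 and 70.9 and 74.4 TPM in RPMI-8226-R and fell 2.06-fold (edgeR adjusted p = 1.5e-11). ICAM2, a further LFA-1 ligand, was 40.8 and 42.2 TPM against 55.8 and 54.6 TPM. The count test gave it -0.03 ± 0.08 on the log2 scale (edgeR adjusted p = 0.815), while the limma test on log2(TPM + 1) gave 0.40 (adjusted p = 0.00846), so its direction turned with the scale. PRR29 overlaps ICAM2 on the opposite strand.

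VCAM1 (chr1:100719742-100739045, plus strand), the cell surface ligand of VLA-4, had 33 and 28 reads in RPMI-8226, 0 in both RPMI-8226-R libraries and 2 in each library labelled NCI-BL2171. It was thus low in every line, at 0.385 and 0.381 TPM where highest, and at least 10.8-fold lower in RPMI-8226-R than in RPMI-8226 (edgeR adjusted p = 3.2e-06).

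ICAM1 and VCAM1 are known as genes that NF-kB activates, and their upstream bases are printed because both genes fell. The motif GGNNNTTCC was searched on both strands in the 250 bases before each RefSeq start (GRCh38.p14). It was chosen after these sequences had been read, from several NF-kB-like patterns tried, because it is found in both, so its presence here is no evidence. Matches are in capitals. For VCAM1 (chr1:100719492-100719741, plus strand) all 250 bases are given. For ICAM1 (chr19:10270924-10270952, plus strand) only the match and 10 bases on either side are given, since a GENCODE 29 exon of ICAM1 overlaps the 250 bases searched.
VCAM1: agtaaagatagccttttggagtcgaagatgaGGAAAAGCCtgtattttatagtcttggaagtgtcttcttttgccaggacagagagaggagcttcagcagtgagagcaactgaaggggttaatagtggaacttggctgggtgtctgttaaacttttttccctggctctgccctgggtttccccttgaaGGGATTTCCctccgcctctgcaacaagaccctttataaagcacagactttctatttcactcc
ICAM1: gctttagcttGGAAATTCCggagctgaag
In VCAM1 the match nearer the start is on the plus strand and the other on the minus strand, and the match in ICAM1 reads as one on either strand. The motif was in 17.1% of 35116 windows of all genes and in 6 of the 31 windows of the 23 members in the table (CD58, ICAM1, ITGA1, ITGA11, ITGA5 and VCAM1). A match is only a run of letters, and binding was not measured.

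EDIL3 (chr5:83940554-84384793, minus strand), a secreted ligand of ITGAV integrins that also inhibits LFA-1 binding, had 1641 and 1506 reads in RPMI-8226 and 0 in the other 4 libraries. That is 15.5 and 14.7 TPM against 0, and at least 560-fold lower in RPMI-8226-R (edgeR adjusted p = 2.9e-17).

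PECAM1, an adhesion molecule of endothelial cells, platelets and leukocytes, had 150 and 160 reads in RPMI-8226 and 23 and 26 in RPMI-8226-R. Its counts fell 6.75-fold (log2 fold change -2.75 ± 0.31, edgeR adjusted p = 1.1e-07), but its TPM of 0.853 and 1.97 against 0.777 and 0.882 overlapped. With an effective-length offset the log2 fold change was -1.08 (edgeR adjusted p = 0.063).

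The 3 members that rose in RPMI-8226-R were CD58, CD2 and CD44. CD58 (chr1:116514535-116571039, minus strand), the ligand of CD2, was 3.81 and 3.30 TPM in RPMI-8226, against 17.2 and 17.6 TPM in RPMI-8226-R and 7.04 and 7.26 TPM in the libraries labelled NCI-BL2171. It stood highest in RPMI-8226-R, 3.89-fold above RPMI-8226 (log2 fold change 1.96 ± 0.17, edgeR adjusted p = 2.4e-09). CD2 (chr1:116754385-116769228, plus strand), its receptor and a marker of T and NK cells, had 112 and 91 reads in RPMI-8226-R, against 0 and 1 in RPMI-8226 and 1 and 0 in the libraries labelled NCI-BL2171. The count ratio between the RPMI lines was 190 (95% counting interval 33.7 to 7533, edgeR adjusted p = 8.7e-09).

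The 6 T and NK cell markers beside it summed to 7.95 to 8.04 TPM in RPMI-8226 and 2.49 to 3.16 TPM in RPMI-8226-R, and most of either sum was CD7, at 7.64 and 7.70 TPM against 2.63 and 1.81 TPM. The other 5 had at most 7 reads in any RPMI library. Among them CD3E had 3 reads in each RPMI-8226 library and 7 in each of RPMI-8226-R, CD3D 2 and 0 against 2 and 2, and NKG7 0 and 0 against 0 and 1, while CD3G had 0 and 6 against 3 and 0 and TRAC 0 and 1 against 0 and 0. Whether CD2 moved with these cell types was not tested. In bulk libraries more cells with a transcript and more of it per cell cannot be told apart. The summed level of 6 B cell markers was 5.87 to 6.14 TPM in RPMI-8226 and 0.510 to 0.517 TPM in RPMI-8226-R, where MS4A1 and CD22 were listed at 0. Most of the RPMI-8226 sum was MS4A1, at 4.12 and 4.42 TPM, while PAX5 had 17 and 27 reads there and 67 and 55 in RPMI-8226-R. Their part in the changes above was not tested.

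CD44, the receptor of hyaluronan, was 15.9 and 11.2 TPM in RPMI-8226 and 23.2 and 23.6 TPM in RPMI-8226-R (log2 fold change 0.53 ± 0.13, edgeR adjusted p = 0.00121). With an effective-length offset it was 0.47 and did not pass (adjusted p = 0.0906). SELPLG, the ligand of selectins, was 89.4 and 86.5 TPM against 104 and 108 TPM. Its count change was -0.18 ± 0.07 (edgeR adjusted p = 0.024), its change on log2(TPM + 1) was 0.27 (adjusted p = 0.0537), and with the RPMI libraries fitted alone the count change was -0.10 (adjusted p = 0.165).

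In RPMI-8226 against the libraries labelled NCI-BL2171, 19 members were higher, 6 lower and 3 did not pass, so that 89.3% were called, against 76.7% of all genes tested (41.1% higher and 35.6% lower). The median log2 fold change of the members was 2.89, against 0.09 over all genes, and all genes split into 8248 higher and 7153 lower on counts, and 6472 higher and 7722 lower on log2(TPM + 1). SELPLG was 430-fold higher (edgeR adjusted p = 1.3e-22), from 0.409 and 0.233 TPM in the libraries labelled NCI-BL2171. ICAM1 was 49.6-fold, ICAM3 20.9-fold and ICAM2 6.16-fold higher, and ITGB2 79.9-fold. ITGA3, without a read there, was at least 297-fold and ITGAL at least 41.6-fold higher in RPMI-8226.

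The members lower in RPMI-8226 were ITGA2B, ITGA5, ITGAV, ITGB1, ITGB3 and CD58. ITGA5 was 54.9 and 58.2 TPM and ITGB1 126 and 125 TPM in the libraries labelled NCI-BL2171, 5.09-fold and 3.67-fold above RPMI-8226 (edgeR adjusted p = 7.5e-17 and 2.1e-16). ITGA2B was 8.52 and 10.5 TPM there, 33.3-fold above RPMI-8226 (edgeR adjusted p = 1.0e-12), while its partner ITGB3 was only 0.267 and 0.456 TPM. The megakaryocyte markers PF4, PPBP, GP9 and GP1BA were listed at 0 in those libraries, and all 8 erythroid markers were present.

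In RPMI-8226-R against the same libraries, 16 members were higher, 8 lower and 4 did not pass, so that 85.7% were called, against 77.4% of all genes tested (39.2% higher and 38.2% lower). The median log2 fold change was 1.44, against 0.00 over all genes. This comparison and the previous one share the libraries labelled NCI-BL2171, so their values are given side by side without a test between them. ICAM1 was 11.2-fold higher in RPMI-8226-R and 49.6-fold higher in RPMI-8226, ITGB2 3.18-fold and 79.9-fold, and SELPLG 379-fold and 430-fold. ITGA4 was lower in RPMI-8226-R and 9.69-fold higher in RPMI-8226 than in those libraries, and CD58 was 2.21-fold higher in RPMI-8226-R and 1.76-fold lower in RPMI-8226. ITGB8 had 9 and 5 reads in RPMI-8226-R and VCAM1 had 0, and their calls here (edgeR adjusted p = 0.0176 and 0.042) were lost under several alternatives, among them the omission of either library labelled NCI-BL2171.

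Genes that act with integrins were taken from 5 lists of 106 genes, of which 89 were tested. In RPMI-8226-R against RPMI-8226, 21 rose, 47 fell and 21 did not pass, so that 76.4% were called beside the 65.6% of all genes. On log2(TPM + 1) the split was 22 higher and 24 lower, while more of all genes were higher than lower on that scale, as given above. By counts, falls outnumbered rises in the signalling list (5 rose and 11 fell of 19) and the inhibitors and traffic list (2 and 4 of 8). The same held for the matrix ligands (3 and 11 of 14) and the other adhesion molecules (4 and 14 of 27). The activators and linkers were even (7 and 7 of 21). Over all genes tested 28.5% were higher and 37.2% lower by counts, so more falls than rises is also the background between the lines. The split of the inhibitors and traffic list is not read as a result on it.

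Kindlins bind beta subunit tails and activate integrins. FERMT3, the kindlin of blood cells, was 22.9 ± 0.943 TPM (SD, n = 2) in RPMI-8226, against 0.904 ± 0.385 TPM in RPMI-8226-R, a 40.7-fold fall (log2 fold change -5.35 ± 0.18, edgeR adjusted p = 6.1e-16). FERMT2, the widely expressed kindlin, fell 64.1-fold by counts (edgeR adjusted p = 6.7e-13), from 5.01 ± 0.893 to 0.363 ± 0.212 TPM. RPMI-8226-R had only 13 and 17 reads of FERMT3 and 4 and 6 of FERMT2, so the size of both folds rests on few reads. The effective length of FERMT2 was also shorter there (712 and 442 bases, against 2058 and 1769 in RPMI-8226), so its TPM fell less than its counts. FERMT1, the epithelial kindlin, rose from 4.47 ± 0.302 to 8.97 ± 1.45 TPM (log2 fold change 0.59 ± 0.12, edgeR adjusted p = 2.8e-04). FERMT3 was also high in the libraries labelled NCI-BL2171, at 59.0 ± 9.31 TPM, and FERMT1 had at most 0.025 TPM there.

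RASGRP2, which loads the integrin activator RAP1, went from 14.5 ± 0.306 to 0.928 ± 0.68 TPM between the RPMI lines (20.6-fold lower, edgeR adjusted p = 5.8e-12). It had 326 and 294 reads in RPMI-8226 and 8 and 24 in RPMI-8226-R. APBB1IP, the adaptor between RAP1 and talin, rose 1.36-fold (edgeR adjusted p = 0.00175). PTK2, the focal adhesion kinase, was 58.3 ± 5.76 TPM in the libraries labelled NCI-BL2171, 0.786 ± 0.279 TPM in RPMI-8226 and listed at 0 in RPMI-8226-R. In the signalling list LPXN, a paxillin relative of leukocytes, rose 1.67-fold (edgeR adjusted p = 4.6e-09), and ZYX, a focal adhesion protein, fell 2.61-fold (edgeR adjusted p = 9.7e-11). Among inhibitors and traffic genes, ITGB1BP1 and SHARPIN, which inhibit integrin activation, each rose 1.69-fold (edgeR adjusted p = 5.2e-08 and 9.5e-07), and CYTH1, which acts on ITGB2 tails, fell 1.92-fold (edgeR adjusted p = 9.9e-11).

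FN1, fibronectin, a ligand of VLA-4 and of ITGA5 with ITGB1, rose from 1279 ± 32.6 TPM in RPMI-8226 to 7490 ± 685 TPM in RPMI-8226-R (5.92-fold, edgeR adjusted p = 6.5e-15), and was 80.9 ± 12.2 TPM in the libraries labelled NCI-BL2171. LAMA3, a laminin chain bound by ITGA3 integrins, fell 20.9-fold (edgeR adjusted p = 2.5e-12), from 6.82 ± 0.231 to 0.135 ± 0.0163 TPM. COL1A1, a collagen chain, fell by 3.17 on the log2 scale (edgeR adjusted p = 1.0e-12). SPP1, osteopontin, a ligand of ITGAV integrins, was 200 ± 16.5 TPM in RPMI-8226, 145 ± 17.0 TPM in RPMI-8226-R and listed at 0 in the libraries labelled NCI-BL2171.

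NCAM1, a homophilic adhesion molecule found on many myeloma cells, rose from 8.73 ± 0.757 to 65.2 ± 9.89 TPM between the RPMI lines (8.21-fold, edgeR adjusted p = 7.4e-17) and was listed at 0 in the libraries labelled NCI-BL2171. PODXL, a sialomucin, rose 1.49-fold (edgeR adjusted p = 1.1e-05). ST3GAL6, a sialyltransferase that helps make selectin ligands, fell 4.46-fold (edgeR adjusted p = 7.5e-12).

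**Figure D5:**
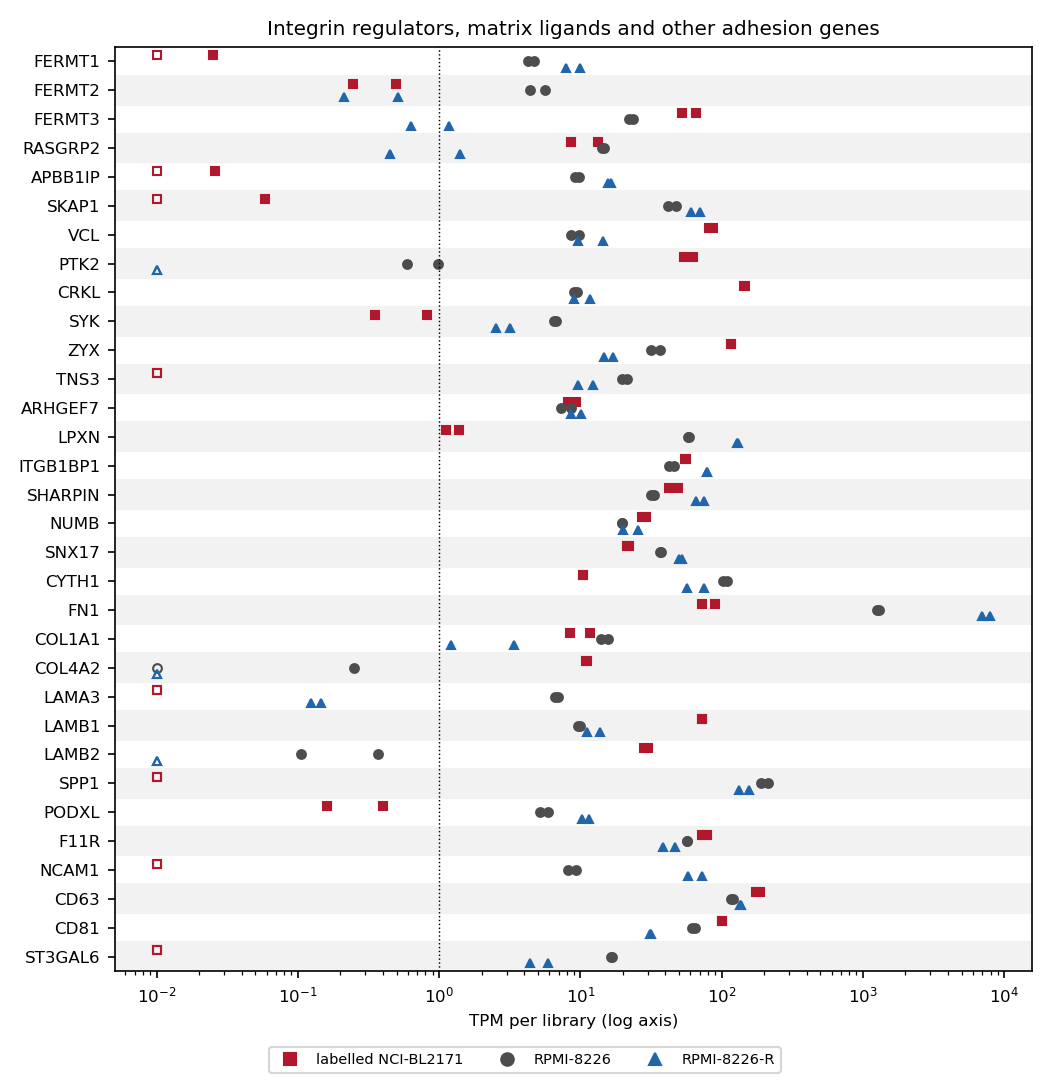
Level in TPM (log axis) of 32 integrin regulators, matrix ligands and other adhesion genes picked by the naming rule, in each of the 6 libraries, with open symbols at the left edge for values below 0.01 TPM and a dotted line at 1 TPM. FERMT2, FERMT3, RASGRP2 and LAMA3 stand lower in RPMI-8226-R than in RPMI-8226, and FN1 and NCAM1 stand higher.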

How the data were processed

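RNA-seq of 6 libraries was used as deposited. The authors deposited 1 table per library with a length, an effective length, a TPM and an estimated count for each gene, per the file headers. The deposited estimated counts were rounded to whole numbers. The deposited TPM values were used as levels. Lengths, another unit the authors deposited, are in bases per the file headers. Per the submitters' processing notes, the genome build was GRCh38.p13. Which quantifier, version, annotation and strand setting were used is not given in the sources used here. Positions are from GENCODE 29 (GRCh38) and upstream sequences from RefSeq (GRCh38.p14). Of 61544 rows, 46 pseudoautosomal Y copies were summed with the X copy, which left 61498 genes.

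The count test was the robust, two-sided quasi-likelihood F test of edgeR 4.0.16 (R 4.3.3), with TMM scaling and filterByExpr (minimum count 10, minimum total 15), in 1 fit of the 6 libraries that left 3 residual degrees of freedom. P-values were adjusted by the Benjamini-Hochberg method over 20081 genes at 0.05. Alternatives were DESeq2 1.42.0, limma 3.58.1 on log2(TPM + 1), an effective-length offset, no filter, a replicate block, each library left out, and other TPM thresholds for pairs. A fit of the RPMI libraries alone and levels at the longest coding length were added after seeing the data. A gene at 0 reads in a line was set against 3 counts per library, and with 1 to 3 counts the count ratio has a 95% interval. Libraries of a line differed beyond counting noise (chi-square per gene 5.19 in NCI-BL2171, 3.34 in RPMI-8226, 10.2 in RPMI-8226-R).

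The members and lists were chosen with earlier results of these data known. Named are all members, ITGB7 and ITGAD, marker genes, and up to 2 rises and 2 falls per list and comparison with the largest change among called genes with no overlap and 5 TPM or more in the higher line. RASGRP2 and FERMT1 meet that rule in 1 comparison and are given in others too. The genes overlapping members (HASPIN, BLOC1S1, METTL7B, PRR29) are named from the annotation, with no values. Some genes that meet the rule are not reported here. The procedure was tested on simulated data.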

Additional observations from a re-analysis of the deposited data

How the results depend on the processing

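Of 84 tests of members over the 3 comparisons, 63 kept their direction and their side of the threshold under every alternative. On log2(TPM + 1) with limma, 14 members were called in RPMI-8226-R against RPMI-8226, in place of 23, and the direction turned for ITGAL (0.18), ICAM2 (0.40), SELPLG (0.27) and ITGB7 (0.20). PECAM1 in RPMI-8226-R against the libraries labelled NCI-BL2171 turned from -0.09 to 2.01 with an effective-length offset and to 0.62 on log2(TPM + 1). Both settings use the effective length, which for PECAM1 was 1114 to 1122 bases in RPMI-8226-R and 2816 to 6633 bases in the libraries labelled NCI-BL2171. The cause was not tested. Leaving out each library in turn gave 19 to 22 members called between the RPMI lines, 25 to 25 for RPMI-8226 and 21 to 23 for RPMI-8226-R against the libraries labelled NCI-BL2171. For all genes the ranges were 11600 to 13192, 14396 to 16281 and 14435 to 15683, and for the 5 lists 57 to 67, 76 to 83 and 80 to 83.

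Fitting the RPMI libraries alone called 20 members, 4 higher and 16 lower. The calls of VCAM1 and ITGB8 in RPMI-8226-R against the libraries labelled NCI-BL2171 rested on 0 to 9 reads per library, so depth limits them. Pairs counted with ITGB7 and ITGAD at 0.5 TPM were 7 in the libraries labelled NCI-BL2171 and 8 in RPMI-8226-R, and without them 7 in RPMI-8226-R. RPMI-8226 held 5 pairs of members, or 7 with ITGB7, both at 5 TPM and at the longest coding length. Leaving out a library gave 4 to 5 pairs of members in the libraries labelled NCI-BL2171, 9 to 9 in RPMI-8226 and 4 to 5 in RPMI-8226-R, and with ITGB7 and ITGAD 4 to 5, 11 to 11 and 5 to 6.

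The labels do not say whether same-numbered libraries share a culture or day. Deviations of same-numbered libraries correlated at 0.08, 0.07 and 0.08, which cannot decide whether they are paired. With the replicate number as a block, 22, 25 and 23 members and 13045, 15295 and 15426 genes were called in the comparisons in the same order, and the calls of ITGAL between the RPMI lines and of VCAM1 in RPMI-8226-R against the libraries labelled NCI-BL2171 were lost.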
